A study of Mus musculus with 8 samples.

Results

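The serum amyloid A family of the mouse liver was followed over 8 RNA-seq libraries. Its members were the 4 genes listed as Saa1, Saa2, Saa3 and Saa4, and all 4 were found among the 48432 genes of the deposited table, with an OK status in every library. The libraries came from livers of wild-type C57BL/6 mice after 30 weeks in 1 of 4 environments, with 2 libraries in each group. LL-PM2.5 mice lived in constant light and breathed PM2.5, fine airborne dust that can reach the deep lung, LD-PM2.5 mice breathed PM2.5 in a light/dark cycle, LL-FA mice lived in constant light in filtered air, and LD-FA mice had a light/dark cycle and filtered air. All groups shared strain, genotype and tissue. The sex of the mice and the time of day at collection were not given in the sources used here, and neither was their age beyond the length of exposure. The labels do not say whether the 2 libraries of a group stem from different animals, and p-values measure only the spread between these libraries, which may be technical.

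Serum amyloid A proteins are small apolipoproteins that travel on high-density lipoprotein (HDL). Saa1 and Saa2 are acute phase genes: hepatocytes switch them on when interleukin-6, interleukin-1 or tumour necrosis factor reach the liver, through the transcription factors STAT3, NF-kB and C/EBP. In the mouse, Saa3 is also made by macrophages and adipocytes outside the liver. Saa4 is the constitutive member, made by the liver without an acute phase stimulus.

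The libraries held 22214720 to 31819109 fragments. The hepatocyte markers, 9 of 10 in the table, summed to 30904 to 40072 FPKM, and none stood at 0 in any library. FPKM is fragments scaled to transcript length and depth, so it allows levels of different genes to be compared. Some libraries stood apart. Pancreas acinar markers, 11 of 11 in the table, reached a sum of 356.5 FPKM in the second LL-PM2.5 library, 129 FPKM in the first LD-PM2.5 library and 3661 FPKM in the first LD-FA library, against 17.9 to 34.8 FPKM in the other 5. Skeletal muscle markers, 7 of 7, reached 524 FPKM in LL-FA replicate 1, 273 FPKM in LD-FA replicate 1 and 31.5 FPKM in LD-FA replicate 2. In all remaining libraries they summed to 0.579 to 1.32 FPKM. LD-PM2.5 replicate 2 differed from LD-PM2.5 replicate 1 in some clock transcripts, with 5.55 against 52.5 FPKM of Nr1d1 and 9.33 against 1.85 FPKM of Per2. Dbp differed less between these libraries, with 13.0 against 9.12 FPKM, but it also differed between groups. It had 32.9 and 54.0 FPKM in LL-PM2.5, 3.86 and 9.08 FPKM in LL-FA and 2.77 and 2.05 FPKM in LD-FA. Nr1d1 had 37.8 and 39.8 FPKM in LL-PM2.5, 15.1 and 12.2 FPKM in LL-FA and 22 and 20.1 FPKM in LD-FA. Outside LD-PM2.5, Per2 had 0.699 to 2.23 FPKM. The part of the time of day at collection in the Saa levels of the groups was not tested.

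The 4 genes lie in 1 cluster on chromosome 7, where GENCODE vM21 on GRCm38/mm10 places Saa3 at chr7:46711998-46715700, Saa4 at chr7:46727998-46732603 and Saa1 at chr7:46740497-46742980, all on the minus strand, and Saa2 at chr7:46751790-46754313 on the plus strand. Saa1 and Saa2 point away from each other, and their starts are 8810 bases apart. The pseudogene Saa-ps lies between Saa4 and Saa1 and had 0 fragments in every library. Because Saa1 and Saa2 followed each other over the libraries, the 250 bases before each RefSeq gene start on GRCm38.p6 are shown with those of Saa3 and Saa4 for contrast. Each is printed 5′ to 3′ on the strand of its gene, and capitals mark matches, on either strand, to the C/EBP letters TTNCNNAA. The windows are chr7:46742981-46743230 (minus strand) for Saa1, chr7:46751583-46751832 (plus strand) for Saa2, chr7:46715677-46715926 (minus strand) for Saa3 and chr7:46732604-46732853 (minus strand) for Saa4.
Saa1: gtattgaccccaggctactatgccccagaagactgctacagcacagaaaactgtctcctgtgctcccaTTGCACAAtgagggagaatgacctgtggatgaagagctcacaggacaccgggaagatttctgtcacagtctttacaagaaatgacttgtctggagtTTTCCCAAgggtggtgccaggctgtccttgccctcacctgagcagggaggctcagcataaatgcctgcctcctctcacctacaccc
Saa2: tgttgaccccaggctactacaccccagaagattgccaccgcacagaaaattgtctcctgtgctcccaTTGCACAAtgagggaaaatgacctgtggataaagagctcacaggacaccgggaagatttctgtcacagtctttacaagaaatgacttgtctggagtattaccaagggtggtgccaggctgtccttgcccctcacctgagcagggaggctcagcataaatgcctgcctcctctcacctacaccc
Saa3: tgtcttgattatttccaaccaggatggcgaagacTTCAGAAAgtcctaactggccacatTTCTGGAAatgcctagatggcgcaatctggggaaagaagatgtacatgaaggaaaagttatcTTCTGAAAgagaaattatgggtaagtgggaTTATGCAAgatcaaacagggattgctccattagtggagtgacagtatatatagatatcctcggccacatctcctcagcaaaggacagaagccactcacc
Saa4: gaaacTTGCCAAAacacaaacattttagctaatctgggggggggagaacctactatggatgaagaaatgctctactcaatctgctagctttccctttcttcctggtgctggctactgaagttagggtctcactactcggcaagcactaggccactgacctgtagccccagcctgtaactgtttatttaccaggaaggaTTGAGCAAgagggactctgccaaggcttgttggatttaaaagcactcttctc
The Saa2 and Saa3 windows end inside the GENCODE gene spans, because the annotations place those starts differently.

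The Saa1 and Saa2 windows were 95.6% identical over 249 aligned bases, while the other pairs were 57.1% to 61.9% identical. The C/EBP letters matched 2 times in Saa1, 1 time in Saa2, 4 times in Saa3 and 2 times in Saa4. Of 32851 promoters of the same RefSeq table, searched over the same 250 bases, 36.8% held a match. The NF-kB letters GGG and TTCC with any 3 bases between them (4.65% of promoters) were not found in the 4 windows, and neither were the STAT3 letters TTCNNNGAA (7.02%). The same held for the E-box CACGTG (6.02%), the D-box TTATGTAA (0.819%) and TATAAA (12.4%). The ROR element AGGTCA, held by 14% of promoters, matched 1 time each in Saa1, Saa2 and Saa4. No searched motif overlapped another of these in the windows, and a match is a description of letters only. Looser spellings of the NF-kB and other sites were not searched, so a missing match does not show that a site is absent.

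The coding sequences of Saa1 and Saa2, 369 bases each, were 95.1% identical, with 18 differing bases. Saa1 was 78.2% identical to Saa3 and 68.8% to Saa4. The stretch from base 90 to base 149 of the coding sequence (GENCODE transcripts, counted from the A of the start codon) is shown because it holds 7 of the 18 differences, in capitals, by which reads can be told apart.
Saa1: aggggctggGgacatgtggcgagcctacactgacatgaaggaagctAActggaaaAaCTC
Saa2: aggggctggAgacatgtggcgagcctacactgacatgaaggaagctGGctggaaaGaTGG
Of all 50-base windows of the Saa1 coding transcript, 9.11% also occurred in that of Saa2, and 0% of 100-base windows did. How long the reads were, and how reads matching both genes were treated, is not given in the sources used here, so the split between Saa1 and Saa2 is uncertain, and the sum of both is reported beside them where it differs.

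Saa1, a major acute phase apolipoprotein, was abundant in every light/dark library and far lower in every constant light library. It had 30.9 and 68.5 FPKM in LL-PM2.5 replicates 1 and 2, against 2134 and 303 FPKM in LD-PM2.5. It had 39.9 and 43.7 FPKM in LL-FA, against 2851 and 1281 FPKM in LD-FA. The LL and LD libraries did not overlap, with LL lower, which held for 1.56% of tested genes: the lowest LD library, LD-PM2.5 replicate 2, stood 4.43 times above the highest LL library, LL-PM2.5 replicate 2. Counting error was small beside this, since the gene drew 631 to 51855 fragments per library. Among all listed genes ordered by FPKM, Saa1 ranked 1951 and 967 in LL-PM2.5, against 23 and 240 in LD-PM2.5. It ranked 1542 and 1495 in LL-FA, against 20 and 41 in LD-FA. By means, Saa1 was 41.8 ± 2.70 FPKM in LL-FA (SD, n = 2), which was 2.02% of the 2066 ± 1110 FPKM in LD-FA (SD, n = 2). It averaged 49.7 ± 26.6 FPKM in LL-PM2.5 (SD, n = 2), or 4.08% of the 1219 ± 1295 FPKM in LD-PM2.5 (SD, n = 2). The spread within groups was uneven: the higher replicate was 2.22 times the lower in LL-PM2.5, against 7.03 times in LD-PM2.5, and 1.10 times in LL-FA, against 2.23 times in LD-FA.

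Saa2, the acute phase gene beside Saa1, showed the same order at a lower level. It had 9.66 and 34.8 FPKM in LL-PM2.5, against 1531 and 162 FPKM in LD-PM2.5. It had 20.3 and 16.6 FPKM in LL-FA, against 1414 and 586 FPKM in LD-FA. Again every LL library lay below every LD library, with a ratio of 4.66 between the lowest LD and the highest LL value. The LL-FA mean of 18.4 ± 2.64 FPKM (SD, n = 2) was 1.84% of the LD-FA mean of 1000.1 ± 585.5 FPKM (SD, n = 2). The LL-PM2.5 mean of 22.2 ± 17.8 FPKM (SD, n = 2) was 2.63% of the LD-PM2.5 mean of 846 ± 968 FPKM (SD, n = 2). Saa2 varied most within LD-PM2.5, where replicate 1 was 9.44 times replicate 2.

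Saa3, whose protein is best known from macrophages and adipose tissue, was a low transcript in every library. It had 4.15 and 11.3 FPKM in LL-PM2.5, against 14.9 and 8.44 FPKM in LD-PM2.5. It had 7.07 and 6.22 FPKM in LL-FA, against 22.7 and 10.8 FPKM in LD-FA. LL-FA lay wholly below LD-FA, as it did for 11.3% of tested genes, while the PM2.5 libraries of both light regimes overlapped. These values rest on 79 to 372 fragments per library. The adipocyte markers, 7 of 7 in the table, summed to 113 FPKM in LL-FA replicate 1 alone, against 17.9 to 20.45 FPKM in the other LL libraries. In LD libraries they summed to 21.1 to 28.3 FPKM. The 8 Kupffer cell and macrophage markers summed to 120 to 155 FPKM in LL and 138 to 179 FPKM in LD libraries, with no macrophage marker at 0. The part of either cell type in the Saa3 levels was not tested. In whole liver, fewer cells of a type and less RNA per cell cannot be told apart.

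Saa4, the constitutive member, varied far less than Saa1 and Saa2. It had 129 and 77.1 FPKM in LL-PM2.5, against 154 and 278 FPKM in LD-PM2.5. It had 129 and 130 FPKM in LL-FA, against 142 and 146 FPKM in LD-FA. The 4 LL libraries lay below the 4 LD libraries in FPKM by a ratio of 1.09 at the closest. This split rests on the scaling: scaled to the total of listed fragments instead of FPKM, Saa4 ran from 280 to 456 CPM (counts scaled to library size) in LL and from 451 to 981 CPM in LD libraries, which overlap. The higher replicate was 1.67 times the lower in LL-PM2.5 and 1.80 times in LD-PM2.5, against 1.01 times in LL-FA and 1.03 times in LD-FA.

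**Figure D1:**
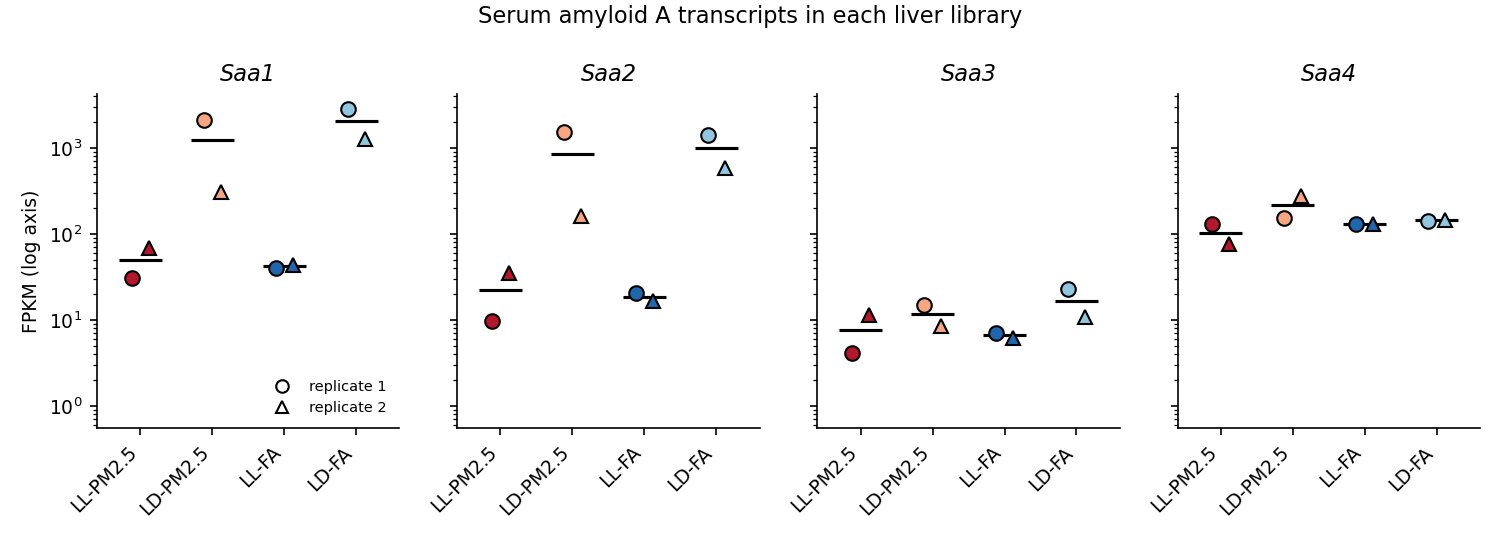
FPKM (log axis) of Saa1, Saa2, Saa3 and Saa4 in each library, by group; circles are replicate 1, triangles replicate 2 and bars the group mean (n = 2). All LL points of Saa1 lie at or below 68.5 FPKM and all LD points at or above 303 FPKM, while Saa4 stays between 77.1 and 278 FPKM.

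In the order of group means, Saa1 ran from LL-FA over LL-PM2.5 and LD-PM2.5 to LD-FA, and Saa2 and Saa3 had the same order. LL-FA and LL-PM2.5 were neighbours whose replicates overlapped for these 3 genes, and so were LD-PM2.5 and LD-FA. LL-PM2.5 lay wholly below LD-PM2.5 for Saa1, Saa2 and Saa4 but not for Saa3, against 18.3% of tested genes. For Saa4 the order was LL-PM2.5, LL-FA, LD-FA and LD-PM2.5, and the replicates of the first pair overlapped.

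Whether constant light goes with a different level was asked within each air condition and as the average over both. No member passed the edgeR quasi-likelihood test after Benjamini-Hochberg adjustment, and neither did any of the 11316 tested genes in these light comparisons (0% called). In LL-FA against LD-FA the log2 fold change was -5.62 ± 0.98 (SE) for Saa1, with an unadjusted edgeR p of 0.000551 and an adjusted p of 0.649. For Saa2 it was -5.74 ± 1.19, with an adjusted edgeR p of 1. For Saa3 it was -1.29 ± 0.53, with an unadjusted p of 0.0421, and for Saa4 -0.14 ± 0.33, with an unadjusted p of 0.676, both by edgeR. Thus 3 of the 4 members were lower with an unadjusted p under 0.05, against 1.55% of all tested genes (310 genes, or 2.74%, in either direction). The members were chosen with earlier results of these data known, and the split between Saa1 and Saa2 is uncertain. Such counts of members are therefore a description and not independent evidence. In LL-PM2.5 against LD-PM2.5 the log2 fold changes were -4.59 ± 0.93 for Saa1, -5.26 ± 1.16 for Saa2, -0.60 ± 0.52 for Saa3 and -1.12 ± 0.33 for Saa4. Here the adjusted edgeR p was 0.367 for Saa1, 0.394 for Saa2, 0.705 for Saa3 and 0.482 for Saa4, and 3 members were lower at an unadjusted p under 0.05, against 5.68% of all genes (9.23% in either direction, 1044 genes).

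Averaged over both air conditions, constant light gave log2 fold changes of -5.10 ± 0.67 for Saa1 and -5.50 ± 0.83 for Saa2, with adjusted edgeR p of 0.150 and 0.188. Saa3 stood at -0.94 ± 0.37 and Saa4 at -0.63 ± 0.23, with adjusted edgeR p of 0.860 and 0.842. All 4 members were lower at an unadjusted p under 0.05, against 3.48% of tested genes in that direction (5.66% in either, 641 genes). For Saa4 this rested on the PM2.5 libraries, with -1.12 ± 0.33 there and -0.14 ± 0.33 in filtered air. Saa3 stood at -0.60 ± 0.52 under PM2.5 and at -1.29 ± 0.53 in filtered air. Saa1 ranked 7 and Saa2 13 by p among the 11316 genes. A log2 fold change below -4 was met by both and by 0.23% of genes. In FPKM, 177 tested genes, or 1.56%, had all 4 LL libraries below all 4 LD libraries, and Saa1, Saa2 and Saa4 were among them. In CPM the LL and LD libraries of Saa4 overlapped. The call depended on the tool. DESeq2 on the same fragments gave adjusted p of 4.6e-11 for Saa1 and 3.38e-09 for Saa2 in this average and called 92 genes, and edgeR with no filter on low values called 291 genes, all 4 members included.

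The light average of Saa1 ran from -5.50 to -4.12 when libraries were left out, and no such fit called it. With replicate 1 of LL-FA and of LD-FA left out, the averaged log2 fold change was -4.74 ± 0.87, with an adjusted edgeR p of 0.567, and without LD-PM2.5 replicate 2 it was -5.50 ± 0.42, with an adjusted edgeR p of 0.0943. Without LL-PM2.5 replicate 2 it was -5.47 ± 0.88 (adjusted edgeR p 0.316), and without LD-PM2.5 replicate 1, which gave the smallest size, -4.12 ± 0.40 for Saa1 and -4.29 ± 0.53 for Saa2 (adjusted edgeR p 0.136 for both). Within PM2.5 the size did rest on 1 library: without LD-PM2.5 replicate 1, the value in LL-PM2.5 against LD-PM2.5 was -2.63 ± 0.56 for Saa1 (adjusted edgeR p 0.193) and -2.85 ± 0.76 for Saa2 (adjusted edgeR p 0.264). Saa3 ran from -1.56 to -0.02 in that comparison when libraries were left out.

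**Figure D2:**
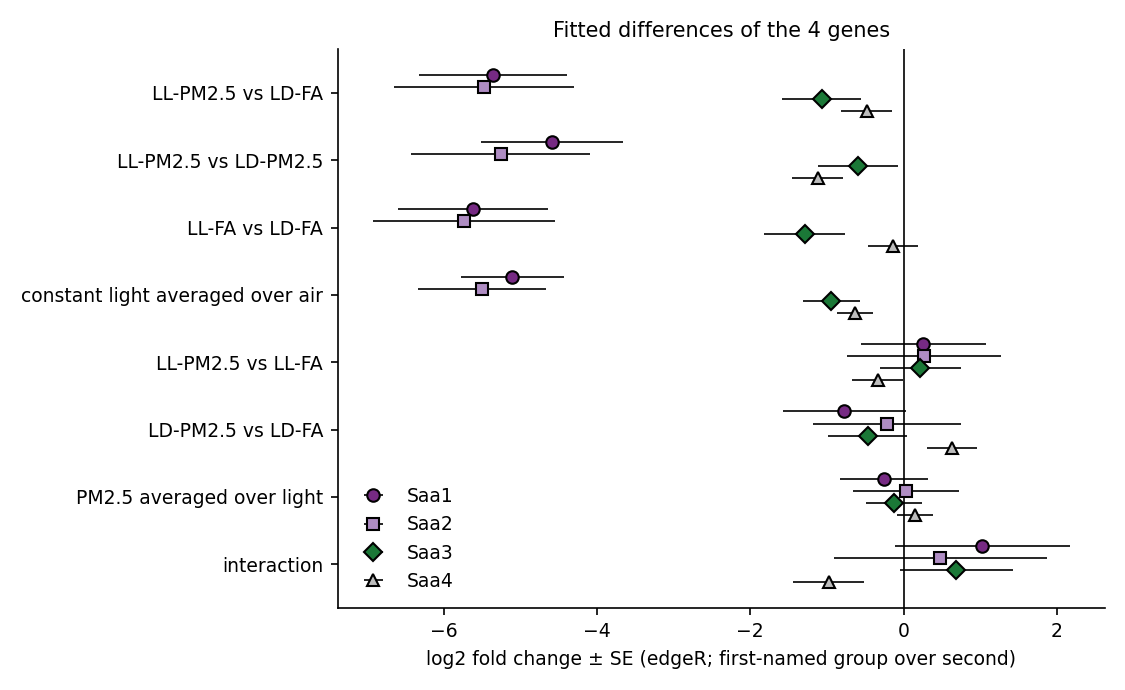
Fitted log2 fold change of each member with its SE (horizontal bars) for the 8 comparisons, first-named group over second, from edgeR on 8 libraries. The 4 upper comparisons all set LL against LD, and the uppermost, LL-PM2.5 vs LD-FA, also differs in air. In these 4, Saa1 and Saa2 lie between -4.59 and -5.74, and their bars cross 0 in the PM2.5 comparisons and the interaction. No member passed the adjusted test.

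Whether PM2.5 goes with a different level was asked within each light regime. In LD-PM2.5 against LD-FA the log2 fold changes were -0.77 ± 0.80 for Saa1, -0.21 ± 0.97 for Saa2, -0.47 ± 0.51 for Saa3 and 0.64 ± 0.33 for Saa4, and the adjusted edgeR p was 0.702 for Saa1, 0.934 for Saa2, 0.715 for Saa3 and 0.505 for Saa4. None of the 4 had an unadjusted p under 0.05, which 11% of tested genes had (1240 genes). The sign for Saa1 and Saa2 turned with LD-PM2.5 replicate 2: without it they stood at 0.042 and 0.66, and without LD-PM2.5 replicate 1 at -2.73 and -2.62. In LL-PM2.5 against LL-FA the values were 0.26 ± 0.81 for Saa1, 0.27 ± 1.0 for Saa2, 0.22 ± 0.53 for Saa3 and -0.34 ± 0.33 for Saa4, each with an adjusted edgeR p of 1, while 4.83% of tested genes had an unadjusted p under 0.05. The PM2.5 average over light was -0.26 ± 0.57 for Saa1 and 0.03 ± 0.69 for Saa2, -0.12 ± 0.37 for Saa3 and 0.15 ± 0.23 for Saa4, in a comparison that called 2 genes (0.0177%), neither of them a member, and where 10% had an unadjusted p under 0.05. With Saa1 and Saa2 summed, that average was -0.15.

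Both exposures against neither, LL-PM2.5 against LD-FA, gave log2 fold changes of -5.36 ± 0.96 for Saa1, -5.47 ± 1.17 for Saa2, -1.07 ± 0.52 for Saa3 and -0.48 ± 0.33 for Saa4, with adjusted edgeR p of 0.297 for Saa1, 0.384 for Saa2, 0.760 for Saa3 and 0.886 for Saa4. Of the 4, Saa1 and Saa2 were lower at an unadjusted p under 0.05, against 3.7% of tested genes (6.71% in either direction). This comparison shares its LD-FA libraries with LL-FA against LD-FA and with LD-PM2.5 against LD-FA. The interaction, which tests whether the PM2.5 difference itself differed between light regimes, was 1.03 ± 1.14 for Saa1, 0.48 ± 1.39 for Saa2, 0.69 ± 0.74 for Saa3 and -0.97 ± 0.46 for Saa4. Its adjusted edgeR p was 0.867 for Saa1, 0.957 for Saa2, 0.861 for Saa3 and 0.843 for Saa4, and 4.88% of tested genes had an unadjusted p under 0.05. With SEs as large as the values, a PM2.5 difference of Saa1 or Saa2 was not detectable in these libraries, which does not show that there was none.

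The make-up of the family differed between the light regimes. Summed over the 4 genes, the family held 174 and 192 FPKM in LL-PM2.5, against 3835 and 752 FPKM in LD-PM2.5. It held 196 and 197 FPKM in LL-FA, against 4430 and 2024 FPKM in LD-FA. Saa4 made up 74.2% and 40.2% of that sum in LL-PM2.5, against 4.03% and 37.0% in LD-PM2.5. It made up 65.7% and 66.2% in LL-FA, against 3.20% and 7.20% in LD-FA. Saa1 was 17.8% and 35.7% in LL-PM2.5, against 55.7% and 40.3% in LD-PM2.5, and 20.4% and 22.2% in LL-FA, against 64.4% and 63.3% in LD-FA. The constitutive gene was thus the largest member in all 4 LL libraries and Saa1 in all 4 LD libraries. Within a library the Saa1 to Saa2 FPKM ratio moved little beside this: it was 3.20 and 1.97 in LL-PM2.5, against 1.39 and 1.87 in LD-PM2.5, and 1.97 and 2.64 in LL-FA, against 2.02 and 2.19 in LD-FA. The ratio of Saa1 to Saa4 was 0.240 and 0.888 in LL-PM2.5, against 13.8 and 1.09 in LD-PM2.5. It was 0.310 and 0.336 in LL-FA, against 20.1 and 8.79 in LD-FA.

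**Figure D3:**
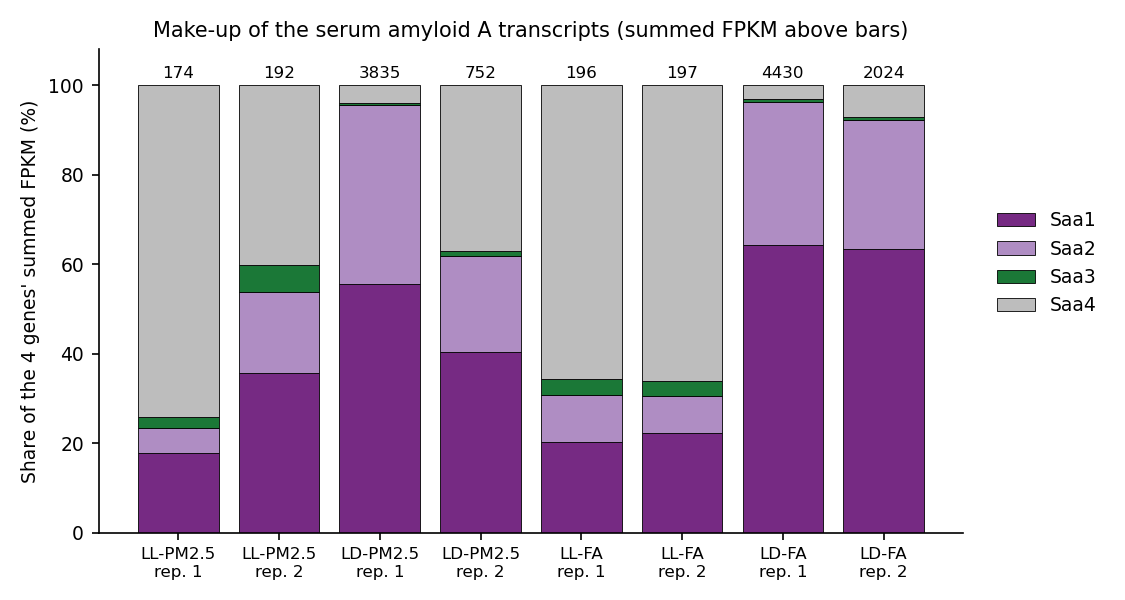
Share (%) of each member in the summed FPKM of the 4 genes, 1 bar per library, with the sum in FPKM above each bar. Saa4 (grey) holds 40.2% to 74.2% in the LL libraries and 3.20% to 37.0% in the LD libraries.

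The members were compared by their pattern over the 8 libraries in log2 CPM. These libraries share 4 groups, so the correlations describe the pattern and are not independent evidence. Saa1 and Saa2 had a Pearson r of 0.995 and a Spearman rho of 0.952. Saa3 followed them at r = 0.851 with Saa1 and 0.869 with Saa2. Saa4 did not follow closely, at r = 0.322 with Saa1, 0.319 with Saa2 and -0.003 with Saa3.

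Among 6440 other genes with a mean of at least 5 FPKM, the 5 most like Saa1 were Lcn2 (lipocalin 2, an iron siderophore-binding acute phase protein, r = 0.989), Orm2 (an orosomucoid, 0.972), Itih4 (0.965), Cp (ceruloplasmin, the copper carrier, 0.956) and the complement gene C4b (0.954). Lcn2 had 1.53 and 3.84 FPKM in LL-PM2.5, against 58.3 and 9.53 FPKM in LD-PM2.5. It had 3.10 and 1.63 FPKM in LL-FA, against 57.0 and 30.6 FPKM in LD-FA. Orm2 had 8.42 and 9.89 FPKM in LL-PM2.5, against 67.7 and 32.1 FPKM in LD-PM2.5, and 13.5 and 13.0 FPKM in LL-FA, against 102 and 41.0 FPKM in LD-FA. Both split the libraries by light without overlap, as 1.56% of tested genes did with LL lower, and had the low LD-PM2.5 replicate 2 of Saa1. Since they were picked for their likeness to Saa1, this is part of the choice and no separate evidence. For Saa2 the 5 were Lcn2 (0.995), the complement gene Hc (0.972), Orm2 (0.970), Itih4 (0.967) and Cp (0.963). For Saa3 they were Ddost (0.962), Fgl1 (0.956), Dpagt1 (0.955), Rpn1 (0.947) and Tmem176a (0.946). Ddost and Rpn1 are subunits of the oligosaccharyltransferase, and Dpagt1 starts the lipid-linked sugar chain that this enzyme transfers to proteins. For Saa4 they were Man2b1 (0.967), Mttp (microsomal triglyceride transfer protein, 0.963), Fam234b (0.959), Fgf1 (0.955) and Csnk1d (0.954). The genes nearest to Saa4 were highest in LD-PM2.5 replicate 2, as Saa4 was, with 28.5 FPKM of Man2b1 and 48.9 FPKM of Fgf1.

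**Figure D4:**
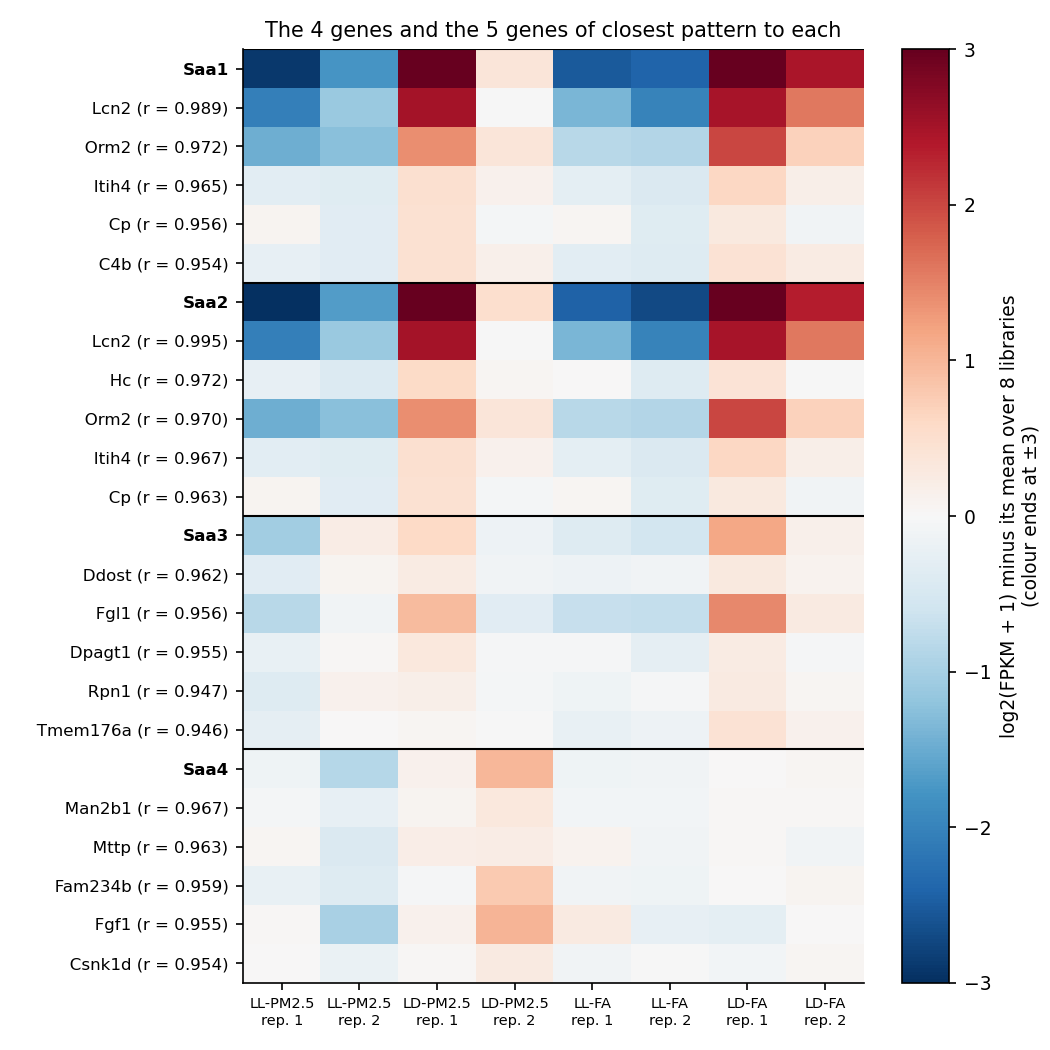
log2(FPKM + 1) of each member (bold) and its 5 closest genes, minus the mean of that gene over 8 libraries, with r from log2 CPM. Saa1, Saa2, Lcn2 and Orm2 are blue in the 4 LL libraries, and the Saa4 block is reddest in LD-PM2.5 replicate 2.

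The genes that act around the family were taken role by role, from lists of known members. Of 8 inducing cytokines 2 passed the filter on low values. Interleukin-1 beta (Il1b) had 1.70 and 1.11 FPKM in LL-PM2.5, against 2.32 and 2.39 FPKM in LD-PM2.5, and 0.868 and 0.634 FPKM in LL-FA, against 4.36 and 2.36 FPKM in LD-FA. Its LL and LD libraries did not overlap, as for 1.56% of tested genes with LL lower. The averaged light value was -1.46 ± 0.22 (adjusted edgeR p 0.188). Il1a stood at -0.71 ± 0.25. Il6 stayed at 0 to 0.0601 FPKM, Tnf at 0.0411 to 0.124 FPKM, and Il22 was listed at 0 in every library; these 3 were named after their values were seen.

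Of 9 tested cytokine receptors, 1 was lower in the light average at an unadjusted p under 0.05 and none higher, against 3.48% of all tested genes lower, with a median log2 fold change of -0.19, against 0.005 over all tested genes. Of 11 signal transducers, 2 were lower and none higher, against the same share, with a median of -0.06. Stat3, which carries the interleukin-6 signal to the nucleus, had 16.8 and 15.9 FPKM in LL-PM2.5, against 24.3 and 23.9 FPKM in LD-PM2.5. It had 16.2 and 15.2 FPKM in LL-FA, against 21.9 and 19.5 FPKM in LD-FA. All LL libraries lay below all LD libraries, as they did for 1.56% of tested genes, at -0.45 ± 0.08 (adjusted edgeR p 0.295).

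The list of factors that act on Saa promoters had 10 tested genes, among them Saal1, the flanking gene, which is no such factor and stood at 0.16 ± 0.12. In the light average 5 of the 10 were lower at an unadjusted p under 0.05 and none higher, with a median of -0.35, against 3.48% of all tested genes lower. In LL-PM2.5 against LD-PM2.5 alone, 7 of 10 were lower, with a median of -0.74, against 5.68% of all tested genes. In LL-FA against LD-FA alone, 0 of 10 were, with a median of -0.06, against 1.55% of all tested genes. Averaged over air, the NF-kB subunit Relb stood at -0.98 ± 0.24 and the AP-1 member Fosl2 at -0.89 ± 0.14. In filtered air alone they stood at -0.38 ± 0.34 and -0.17 ± 0.20. Of 8 genes listed as feedback inhibitors 6 were lower in the light average and none higher, against the same 3.48%, with a median of -0.66. Among them were Nfkbiz at -1.11 ± 0.14 and Bcl3 at -0.97 ± 0.24, atypical members of the inhibitor-of-kB family that are not plain inhibitors. Socs3, the brake on interleukin-6 signalling, stood at -1.44 ± 0.55 in the average, with opposite signs in the 2 air conditions: -3.66 ± 0.83 in LL-PM2.5 against LD-PM2.5 and 0.78 ± 0.77 in LL-FA against LD-FA, with an interaction of -4.44 ± 1.12 (adjusted edgeR p 0.843). In these lists the adjusted edgeR p was at or above 0.150, so none passed.

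Of 27 other positive acute phase genes, 24 were tested. In the light average 23 of the 24 had a negative value, 16 were lower at an unadjusted p under 0.05 and none higher, against 3.48% of all tested genes lower, and the median was -0.57. In LL-PM2.5 against LD-PM2.5, 10 of the 24 were lower at that threshold and none higher, against 5.68% of all tested genes lower, with a median of -0.60. In LL-FA against LD-FA, 10 were lower, against 1.55% of all tested genes (2.74% in either direction), with a median of -0.685. There 1 of the 24 was higher, Steap4 at 0.64 ± 0.27. Since the list held genes already known to be low in LL in these libraries, its direction is not independent evidence. In the light average Lcn2 stood at -3.91 ± 0.63, Orm2 at -2.44 ± 0.32, Orm3 at -2.0 ± 0.30 and haptoglobin (Hp), which binds free haemoglobin, at -0.95 ± 0.16. In size Saa1 and Saa2 were beyond all of these. At an unadjusted p under 0.05 in the light average, 5.66% of all tested genes passed in either direction. Of 9 negative acute phase genes, which the liver makes less of in an acute phase, none passed, and the median was 0.03. Of 8 tested receptors and binding proteins of serum amyloid A none did either, with a median of -0.09. Of 7 HDL partners, only the phospholipid transfer protein Pltp did, at 0.52 ± 0.17, and Apoa1, the main HDL apolipoprotein, stood at 0.19 ± 0.21.

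**Figure D5:**
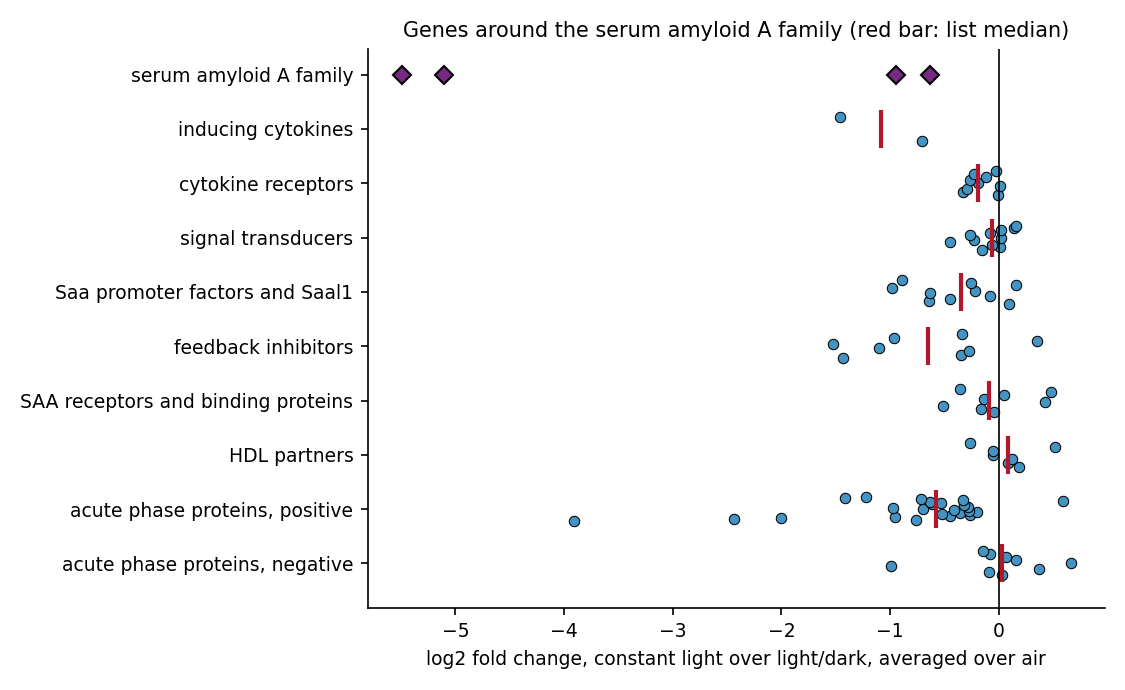
log2 fold change of constant light over the light/dark cycle, averaged over air, for the 4 members (diamonds) and the tested genes of 9 lists (circles), with the list median as a red bar. Medians run from -1.08 for the inducing cytokines to 0.08 for the HDL partners, and Saa1 and Saa2 lie at -5.10 and -5.50.

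In LD-PM2.5 against LD-FA, where Saa1 and Saa2 had negative values that did not pass, the lists did not all have the same sign. The 2 tested cytokines had negative values, Il1b at -0.50 ± 0.30 and Il1a at -0.29 ± 0.35, with unadjusted edgeR p of 0.132 and 0.428. Of the promoter factors, 5 of 10 were higher at an unadjusted p under 0.05 and none lower, with a median of 0.68. Of all tested genes 6.78% were higher at that threshold, and 11% passed it in either direction. Relb stood at 1.44 ± 0.33 and Fosl2 at 0.91 ± 0.20. Of the cytokine receptors 4 of 9 were higher and none lower, against the same 6.78%. Among them was Il6st, the shared signal chain of the interleukin-6 receptor family, at 0.70 ± 0.18. Of the 8 genes listed as feedback inhibitors 2 were higher and none lower, against the same 6.78%, with a median of 0.25. These 2 were Socs3 at 3.12 ± 0.80 and Nfkbiz at 1.01 ± 0.20, while 3 of the 8 had negative values. The acute phase membrane reductase Steap4 stood at 1.39 ± 0.27. Of the 24 positive acute phase genes 1 was higher and none lower, against the same 6.78% higher, with a median of -0.05. None of these passed the adjusted edgeR test, where p was at or above 0.324.

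LD-PM2.5 replicate 2, the LD library lowest in Saa1, Saa2 and Saa3, was the highest of all 8 in Saa4, Socs3 and Bcl3. Socs3 had 1.45 and 1.21 FPKM in LL-PM2.5, against 10.4 and 23.9 FPKM in LD-PM2.5, and 0.817 and 6.16 FPKM in LL-FA, against 2.56 and 1.48 FPKM in LD-FA. Bcl3 had 13.7 and 13.5 FPKM in LL-PM2.5, against 24.3 and 53.7 FPKM in LD-PM2.5, and 18.4 and 17.4 FPKM in LL-FA, against 29.5 and 22.7 FPKM in LD-FA. The same library had the highest summed FPKM of the 8 neutrophil markers, at 13.9, against 3.80 to 7.03 in the other 7, with 4 of the 8 markers at 0. It also had the fewest fragments. The part of these in the Saa values of that library was not tested.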

How the data were processed

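RNA from frozen livers was extracted by RNeasy column and made into Illumina libraries, per the labels' protocols. The submitters' processing notes name STAR, Cufflinks, Cuffdiff and the build mm10, while each version and the annotation stayed unnamed there. The deposited table gives each gene in each library as fragments, an expected or estimated count, and as FPKM made by the authors, per the file headers. The 2 columns of scaled fragments were not used. Of fragment values above 0, 97.4% lay within 0.01 of a whole number, and all were rounded. Genes with a status other than OK in any library (47) were left out, which leaves 48323 symbols. Values are printed in FPKM and tested as fragments.

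edgeR 4.0.16 (R 4.3.3; TMM scaling, quasi-likelihood test, two-sided) was fitted once to 8 libraries as 4 group means (4 degrees of freedom left), on the 11316 genes that reached 1 FPKM in 2 or more libraries, with Benjamini-Hochberg adjustment over all of them and a threshold of 0.05. The SE was taken from the test, as the size of the log2 fold change over the root of its F. The biological coefficient of variation was 21.4%, with 3.46 prior degrees of freedom. The median SE of a gene was 0.19 between groups and 0.13 for the light average, which with the depth sets the precision. No batch or date is given in the labels. The test was tried on simulated data.

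The members and gene lists were chosen with earlier results of these data known. Named were all 4 members, the 5 genes of highest Pearson correlation with each (log2 CPM, prior count 2), and of each list up to 4 genes of smallest p in LL-FA vs LD-FA and in LD-PM2.5 vs LD-FA. Saal1 is named for its position, and the clock genes Nr1d1, Per2 and Dbp are named outside this rule. Alternatives were limma 3.58.1 on log2(FPKM + 1) and log2(FPKM + 0.1), DESeq2 1.42.0, no filter, a filter at 5 FPKM, median-of-ratios scaling, a robust prior, a replicate block, the compared groups alone, Saa1 and Saa2 summed, and libraries left out. Sequences come from RefSeq on GRCm38.p6 and GENCODE vM21, with all 4 symbols matched, aligned with Biopython 1.88. Python 3.11.15, numpy 2.4.6, pandas 2.3.3 and matplotlib 3.10.9 were used. ATAC-seq was not analysed here.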

Additional observations from a re-analysis of the deposited data

How the results depend on the processing

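For each member, the 4 comparisons of LL with LD, among them LL-PM2.5 against LD-FA, which also differs in air, had a total of 75 alternative values. These come from refits of the same libraries and are not independent of each other. The log2 fold change was negative in 75 of 75 for each of the 4 members. It ran from -6.11 to -2.63 for Saa1, from -6.69 to -2.85 for Saa2, from -2.03 to -0.02 for Saa3 and from -1.52 to -0.05 for Saa4. Calls depended on the tool. DESeq2 called Saa1 at -5.61 in LL-FA against LD-FA, -4.59 in LL-PM2.5 against LD-PM2.5, -5.35 in LL-PM2.5 against LD-FA and -5.10 in the light average, and edgeR with no filter called the same at -5.63, -4.60, -5.37 and -5.11. Both also called Saa2 in these 4, and Saa4 in LL-PM2.5 against LD-PM2.5. With no filter Saa3 was also called in LL-FA against LD-FA, LL-PM2.5 against LD-FA and the light average, and Saa4 in the light average. DESeq2 called 33 to 161 genes per comparison and no filter 201 to 696, against 0 to 2 by edgeR as reported, and 0 to 36 in the other settings, 36 without LD-PM2.5 replicate 1. The cause was not tested.

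The PM2.5 values changed sign. When libraries were left out, Saa1 ran from -2.73 to 0.042 in LD-PM2.5 against LD-FA, from -0.50 to 0.76 in LL-PM2.5 against LL-FA and from -1.24 to 0.15 in the PM2.5 average, Saa2 from -2.62 to 0.66, from -0.96 to 0.93 and from -1.18 to 0.53, and Saa3 from -0.88 to 0.085, from -0.75 to 0.80 and from -0.61 to 0.20. The interaction ran from -0.76 to 2.88 for Saa2 and from -0.28 to 1.27 for Saa3, and the PM2.5 average of Saa4 from -0.14 to 0.35. With replicate 1 of LL-FA and of LD-FA left out together, the PM2.5 average was 0.041 for Saa1 and 0.20 for Saa3, LD-PM2.5 against LD-FA was 0.58 for Saa2 and 0.085 for Saa3, and the Saa2 interaction was -0.095. The PM2.5 average of Saa2 was -0.425 by limma with a pseudocount of 1, -0.433 with 0.1, and -0.15 with Saa1 and Saa2 summed. A group left with 1 library is assumed to vary like the others.

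Deviations of libraries of the same replicate number had no common sign, correlating at -0.59 (LD-FA with LL-PM2.5) to 0.33 (LD-FA with LD-PM2.5) over the 6 pairs of groups. Pancreas and muscle transcripts of single libraries enter these deviations, so the check cannot tell whether libraries were paired or shared a batch. With a replicate block, the light average of Saa1 was -4.86 ± 0.68 (adjusted edgeR p 0.176) and no member was called.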
